A study of Homo sapiens with 2 samples.

Results

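The genes described here encode the hydrolases and membrane proteins of the lysosome. A list of 38 gene symbols was chosen by function: enzymes that break down glycosaminoglycans, sphingolipids, glycoproteins, glycogen, proteins and lipids, proteins of the lysosomal membrane, and the transcription factor TFEB. A probe set was used when the array annotation assigned it to 1 of these symbols and to no other gene, and each gene was represented by its brightest probe set, that is the one of highest mean log2 signal. By this rule 37 of the 38 genes were measured, with 97 probe sets in all, among 19775 genes measured on the arrays. GLB1, the lysosomal beta-galactosidase, was not measured, since its probe set 201576_s_at is also assigned to TMPPE.

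The study compared PRAME knock-down cells with vector control cells of the Hodgkin lymphoma (HL) cell line L-428, each hybridized to 1 array of the type HG_U133PLUS2.0. The knock-down cells carried the vector pcDNA6.2-GW/EmGFP-miR-PRAME and the control cells carried pcDNA6.2-GW/EmGFP-miR-neg. Both were stable transfectants under blasticidin, and the arrays were used to look for genes whose expression depends on PRAME. The values are MAS5 signal intensities on a linear scale, and a log2 ratio is the log2 signal in knock-down cells minus that in control cells after subtraction of the median difference (0.045). With 1 array per condition there is no spread between replicates and no test, so that all differences are descriptions of these arrays. A threshold of 1.5-fold in the brightest probe set is used to count genes. In cultures measured as a whole, less RNA per cell and fewer cells with the RNA cannot be told apart.

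PRAME itself had a signal of 1251 in the knock-down cells and 2115 in the control cells (log2 ratio -0.80). Signals at the 3' end divided by those at the 5' end gave 1.04 in knock-down and 0.948 in control cells for GAPDH, and 1.17 and 1.14 for ACTB in the same order. Of 8 marker genes of Hodgkin and Reed-Sternberg cells 7 were at or above the median signal of all probe sets (97.7), whereas the chemokine CCL22 was not (15.2 in knock-down and 9.05 in control cells). Of the 5 measured B cell markers 4 reached it. The 5 T cell markers were below it in the mean of both arrays, although CD2 reached 106.7 on the knock-down array (46.6 on the control array), and their summed signal was 278 in knock-down and 247 in control cells. The 6 measured markers of monocytes and macrophages, cells rich in lysosomes, were all below it, with a summed signal of 215 in knock-down and 199.6 in control cells and CD14 at 16.3 and 4.03. The series description names L-540 cells and another array type, whereas the sample labels name L-428 cells.

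Lysosomes are acidic compartments in which macromolecules from endocytosis and autophagy are cut into units that the cell can use again. Most of their soluble enzymes receive a mannose phosphate mark in the Golgi apparatus and are carried to the lysosome by mannose phosphate receptors. Loss of single enzymes causes the lysosomal storage diseases, for example Sanfilippo syndrome (SGSH, NAGLU, HGSNAT), Pompe disease (GAA) or Fabry disease (GLA). TFEB activates many lysosomal genes through a palindromic promoter motif known as the CLEAR element, and in B cells lysosomal proteases also trim the antigens and the invariant chain for MHC class II presentation.

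The promoters of the list are shown because TFEB is known to act through this motif. RefSeq promoter sequences (GRCh38.p14, 250 bases before to 50 bases after the gene start) were available for 26 of the 38 genes. The letters CACGTG, the core of the motif, were found in 7 of these 26 promoters (26.9%), compared with 7.43% of all 27305 promoters. Among the 15384 promoters of genes measured on the arrays the share was 8.90%. The longer form TCACGTGA, which contains the core, was found in 5 of 26 (19.2%) and in 1.04% of all promoters. For the promoters of measured genes it was 1.45%. Both words read the same on both strands. The core was present in the promoters of CTSA, CTSD, GALNS, GAA, LAMP1, MCOLN1 and NEU1, and the longer form in those of CTSA, GALNS, GAA, LAMP1 and MCOLN1. Base composition was not matched in this count, and a match is only a description of the letters. The stretch from 200 bases before to 10 bases after the start is printed for the 5 promoters with the longer form, in lower case with the core, or the longer form where it is complete, in capitals.
CTSA promoter, chr20:45891135-45891344, plus strand: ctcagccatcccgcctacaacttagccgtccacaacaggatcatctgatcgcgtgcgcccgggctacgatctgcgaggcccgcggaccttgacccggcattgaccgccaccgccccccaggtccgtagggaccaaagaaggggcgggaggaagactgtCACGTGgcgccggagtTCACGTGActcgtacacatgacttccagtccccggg
GALNS promoter, chr16:88856938-88857147, minus strand: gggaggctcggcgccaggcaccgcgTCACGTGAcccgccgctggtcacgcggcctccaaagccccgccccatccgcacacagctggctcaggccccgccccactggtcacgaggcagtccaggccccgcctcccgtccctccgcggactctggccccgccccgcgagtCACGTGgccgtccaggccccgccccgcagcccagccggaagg
MCOLN1 promoter, chr19:7522424-7522633, plus strand: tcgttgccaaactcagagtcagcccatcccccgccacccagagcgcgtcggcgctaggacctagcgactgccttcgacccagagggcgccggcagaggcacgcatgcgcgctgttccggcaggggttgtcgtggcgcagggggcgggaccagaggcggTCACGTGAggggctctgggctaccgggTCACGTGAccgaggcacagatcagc
GAA promoter, chr17:80101381-80101590, plus strand: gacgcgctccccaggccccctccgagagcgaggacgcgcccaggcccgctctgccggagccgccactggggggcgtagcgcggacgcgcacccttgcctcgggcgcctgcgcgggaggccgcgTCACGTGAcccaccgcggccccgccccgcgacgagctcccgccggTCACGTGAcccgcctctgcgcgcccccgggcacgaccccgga
LAMP1 promoter, chr13:113297039-113297248, plus strand: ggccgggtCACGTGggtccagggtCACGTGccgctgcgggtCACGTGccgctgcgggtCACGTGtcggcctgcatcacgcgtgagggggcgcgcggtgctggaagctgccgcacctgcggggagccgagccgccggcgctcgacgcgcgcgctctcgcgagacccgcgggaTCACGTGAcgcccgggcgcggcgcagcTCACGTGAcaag
LAMP1 had the most copies of the core (6), of which 2 were the longer form. GAA and MCOLN1 had 2 copies each, all of the longer form, and CTSA and GALNS had 1 copy of the longer form and 1 further core.

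In their brightest probe sets the lysosomal genes lay on both sides of 0 in nearly equal numbers. Of the 37 measured genes, 19 had a log2 ratio below 0 and 18 above 0, and the median log2 ratio was -0.03, compared with 0.08 for all 19775 genes. The sign of this median was not stable, with 0.02 when the ratios were not centered and 0.07 for the median over all probe sets of each gene. With the latter 15 of 37 genes were below 0. Without probe sets ending in _s_at, _x_at or _a_at it was 0.13, with 11 of 30 genes below 0, and the median of all genes was 0.10. Relative to the control, 3 genes (8.11%) were at least 1.5-fold lower in PRAME knock-down, namely MANBA, SGSH and HEXA, and 4 (10.8%) exceeded it 1.5-fold or more, namely GALC, CTSD, CTSA and GALNS. None of the 37 differed by 2-fold or more in its brightest probe set. For all genes measured the same way, 9.23% passed this threshold as lower and 20.6% as higher, and 43.3% were below 0. At low signals ratios scatter more, and 35 of the 37 lysosomal genes, all except GALC and CTSL, had a mean signal at or above the median of 97.7. Of these 35 genes 3 (8.57%) were at least 1.5-fold lower and 3 (8.57%) higher, and 18 (51.4%) were below 0. Among the 11794 genes with such signals 5.42% passed this threshold as lower and 7.54% as higher, and 51% were below 0. The log2 ratios of the 35 genes had an SD of 0.40, and those of the 11794 genes an SD of 0.41.

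The balance of both directions depended on the scaling. Without centering 7 genes (18.9%) were higher and 3 (8.11%) lower, against 22.2% and 8.39% of all genes. After addition of an offset of 64 to all signals 1 (2.70%) was higher and 3 (8.11%) were lower, against 5.23% and 3.27%. With quantile-normalized signals 6 (16.2%) were higher and 2 (5.41%) lower, against 15.0% and 11.9% of all genes. With a loess trend removed the counts were the same, against 14.9% and 12.0% of all genes. Such a trend was present, as the median log2 ratio was 0.21 in the dimmest of 8 classes of the probe sets at or above the median signal and -0.09 in the class next to the brightest.

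**Figure D1:**
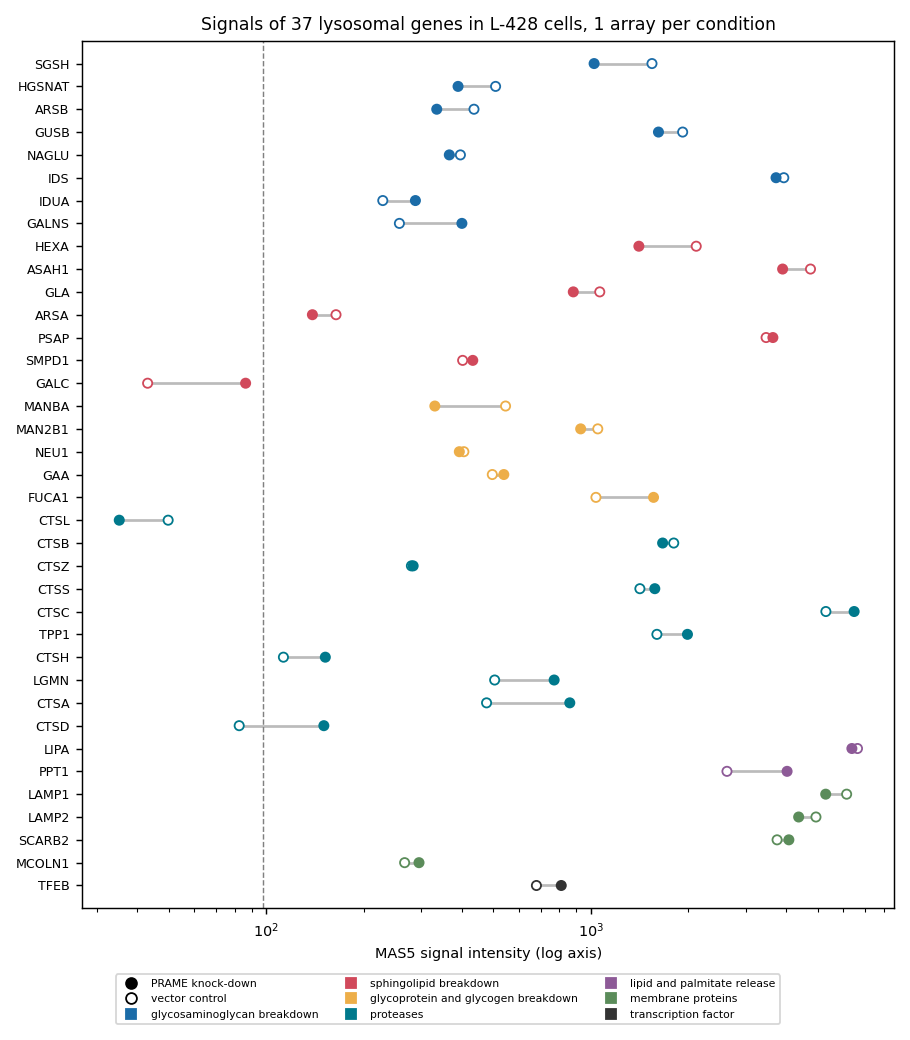
MAS5 signal intensities (log axis) of the 37 measured lysosomal genes in PRAME knock-down cells (filled points) and vector control cells (open points), 1 array per condition, grouped by role and drawn at the brightest probe set. The dashed line is the median signal of all probe sets (97.7); GALC and CTSL lie below it on both arrays and CTSD only in the control cells.

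Most enzymes of glycosaminoglycan breakdown had lower signals in the knock-down cells in their brightest probe sets. Of 8 genes, all at or above the median signal, 6 had a log2 ratio below 0, with 1 past 1.5-fold as lower and 1 as higher. Of all genes with such signals 51% were below 0, 5.42% were past 1.5-fold as lower and 7.54% as higher. These shares also stand beside the counts below for groups with all genes at or above the median signal. The median of -0.23 stayed below 0 under all 8 alternatives, but was -0.09 for the median over the probe sets of each gene. The count of 6 of 8 does not hold for that alternative or without probe sets ending in _s_at, _x_at or _a_at. NAGLU (0.74 and 1.64) and ARSB (0.03 and 0.94) were then above 0. SGSH, the sulfamidase that removes the sulfate from the amino group of heparan sulfate, had a signal of 1024 in the knock-down cells and 1543 in the control cells (log2 ratio -0.64). Of the 1000 probe sets nearest in signal, 4.3% had a lower log2 ratio. Its other probe set, 204293_at, had signals of 110.2 and 367 in the same order, with a log2 ratio of -1.78, so that both probe sets were lower by at least 1.5-fold but differed from each other by 1.14 on the log2 scale. With quantile-normalized signals (log2 ratio -0.55) and with the loess trend removed (-0.56) the first probe set was just under 1.5-fold.

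None of the 3 genes on either side of SGSH on chromosome 17 had a log2 ratio below 0. SLC26A11, an anion transporter gene beside it, had a signal of 1784 in the knock-down cells and 1243 in the control cells (log2 ratio 0.48). GAA, EIF4A3 and RNF213 had log2 ratios of 0.07, 0.0017 and 0.07, ENDOV had 0.48 and CARD14 was below the median signal on both arrays (75.3 and 71.2). SGSH and CARD14 overlap in the RefSeq gene table.

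The other steps of heparan sulfate breakdown were less different. HGSNAT, the membrane enzyme that acetylates the terminal glucosamine, had a signal of 389.7 in the knock-down cells and 509 in the control cells (log2 ratio -0.43). Its 5 probe sets disagreed, with -0.73 for 222491_at, 1.23 for 1557064_s_at, 0.65 for 238090_at and -3.33 for 227564_at, of which 238090_at was below the median signal on both arrays and 227564_at only in its mean log2 signal (12.3 in knock-down and 119.8 in control cells). GUSB, the beta-glucuronidase often used as a reference gene in PCR, had signals of 1616 and 1919 in knock-down and control cells (log2 ratio -0.29). NAGLU, which cleaves the acetylated glucosamine that HGSNAT makes, had 366 and 396 (log2 ratio -0.16). Its second probe set, 215880_at, had 30.8 in knock-down and 9.57 in control cells, below the median signal, with a log2 ratio of 1.64, and the median of both was 0.74. IDS, the iduronate sulfatase, was measured by 10 probe sets, and 6 of the 7 at or above the median signal had a log2 ratio below 0, between -0.41 and -0.12, whereas 210666_at had 0.17. For its brightest probe set the knock-down cells had 3724 and the control cells 3934. IDUA, the iduronidase, was the exception in this pathway with a signal of 288 in the knock-down cells and 228 in the control cells (log2 ratio 0.29). Heparan sulfate breakdown, a subset formed after the values were seen, had 5 of 6 genes below 0 in the brightest probe sets, with 1 of them past 1.5-fold. Of all genes at or above the median signal 51% were below 0 and 5.42% were past 1.5-fold as lower. The count of 5 of 6 does not hold for the median over probe sets or without the endings _s_at, _x_at and _a_at, where NAGLU was above 0.

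The sulfatases for dermatan sulfate and keratan sulfate lay on opposite sides of 0. ARSB, which acts on dermatan sulfate, had a signal of 335 in the knock-down cells and 436 in the control cells (log2 ratio -0.43), and its second probe set had -0.0060. Another, 1554030_at, was below the median signal in its mean and had 0.94, and the median over its 4 probe sets was 0.03. The 526 genes of chromosome 5 with signals at or above the median, where ARSB lies, had a median of -0.16, and the part of this shift in the value of ARSB was not tested. GALNS, which acts on keratan sulfate and chondroitin sulfate, had a signal of 400.5 in the knock-down cells and 257 in the control cells (log2 ratio 0.59), and its probe set below the median signal had 0.41. GALNS was just past 1.5-fold and was under it with quantile-normalized signals, with the loess trend removed, with the offset of 64 (log2 ratio 0.49) and for the median of its probe sets (0.50). TRAPPC2L, which overlaps GALNS on the opposite strand, had 1275 and 1577 in knock-down and control cells.

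Enzymes of sphingolipid breakdown had a median log2 ratio of -0.29, with 4 of 7 genes below 0, 1 past 1.5-fold as lower and 1 as higher. Of all genes 43.3% were below 0, 9.23% were past 1.5-fold as lower and 20.6% as higher. The gene counted as higher, GALC, was below the median signal. Of the 6 genes at or above it 1 was past 1.5-fold as lower and none as higher. HEXA, the alpha subunit of beta-hexosaminidase that degrades gangliosides, had a signal of 1406 in the knock-down cells and 2113 in the control cells for 201765_s_at (log2 ratio -0.63), and 4.6% of the 1000 probe sets nearest in signal were lower. Its 3 other probe sets pointed the other way. Those at or above the median signal had 364 in knock-down and 217 in control cells (log2 ratio 0.70) and 193 and 131 (log2 ratio 0.51), and the third, with a mean log2 signal below the median, had 116.8 and 48.3 (log2 ratio 1.23). The direction of HEXA therefore depended on the probe set, and the median over its 4 probe sets was 0.61. It was under 1.5-fold with quantile-normalized signals (-0.54) and with the loess trend removed (-0.55).

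The remaining genes for sphingolipids were within 1.5-fold with the exception of GALC. ASAH1, the acid ceramidase, had a signal of 3901 in the knock-down cells and 4755 in the control cells (log2 ratio -0.33), with values between -0.36 and 0.15 in its 4 probe sets at or above the median signal. GLA, the alpha-galactosidase, had 883 and 1065 in knock-down and control cells (log2 ratio -0.32) in its single probe set. ARSA, which removes the sulfate of sulfatide, had 138.6 and 163.9 (log2 ratio -0.29), close to the median signal. PSAP, the precursor of the saposins that present lipids to these enzymes, had nearly equal signals of 3641 in the knock-down cells and 3469 in the control cells (log2 ratio 0.02), and its second probe set had -0.02. SMPD1, the acid sphingomyelinase, had 433 and 403 (log2 ratio 0.06), but 186 and 92.6 in 216230_x_at (log2 ratio 0.96). GALC, the galactosylceramidase, had a signal of 86.3 in the knock-down cells and 43.0 in the control cells (log2 ratio 0.96), both below the median signal. Of the probe sets with similar signals 84.2% had a lower ratio, and with the offset of 64 the log2 ratio of GALC was 0.45, so that this value is not well determined. The sign of the median of this group was not stable to the choice of probe set, with 0.19 when probe sets with the endings _s_at, _x_at or _a_at, which can match several transcripts, were left out.

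Among enzymes for glycoproteins and glycogen, MANBA was lower and the others differed by less than 1.5-fold. MANBA, the beta-mannosidase that acts late in the breakdown of N-glycans, had a signal of 330.5 in the knock-down cells and 546 in the control cells. Its log2 ratio of -0.77 was the lowest of the 37 genes, and 3.3% of the 1000 probe sets nearest in signal were lower. MANBA was at least 1.5-fold lower in all 7 alternatives in which it was measured, with log2 ratios between -0.77 and -0.67, but it has a single probe set. On chromosome 4, where MANBA lies, the 420 genes at or above the median signal had a median log2 ratio of -0.10. The part of this shift in the value of MANBA was not tested. FUCA1, the alpha-fucosidase, had 1561 in the knock-down cells and 1037 in the control cells (log2 ratio 0.54), which was higher than 96.0% of the probe sets with similar signals. MAN2B1, the alpha-mannosidase, had 930.5 and 1051 in knock-down and control cells (log2 ratio -0.22). The sialidase NEU1 and the acid alpha-glucosidase GAA, which degrades glycogen, had nearly equal signals. NEU1 had 393 in the knock-down cells and 406 in the control cells (log2 ratio -0.09), and GAA had 539 and 497 (log2 ratio 0.07). Both mannosidases thus had log2 ratios below 0 and the fucosidase above 0.

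**Figure D2:**
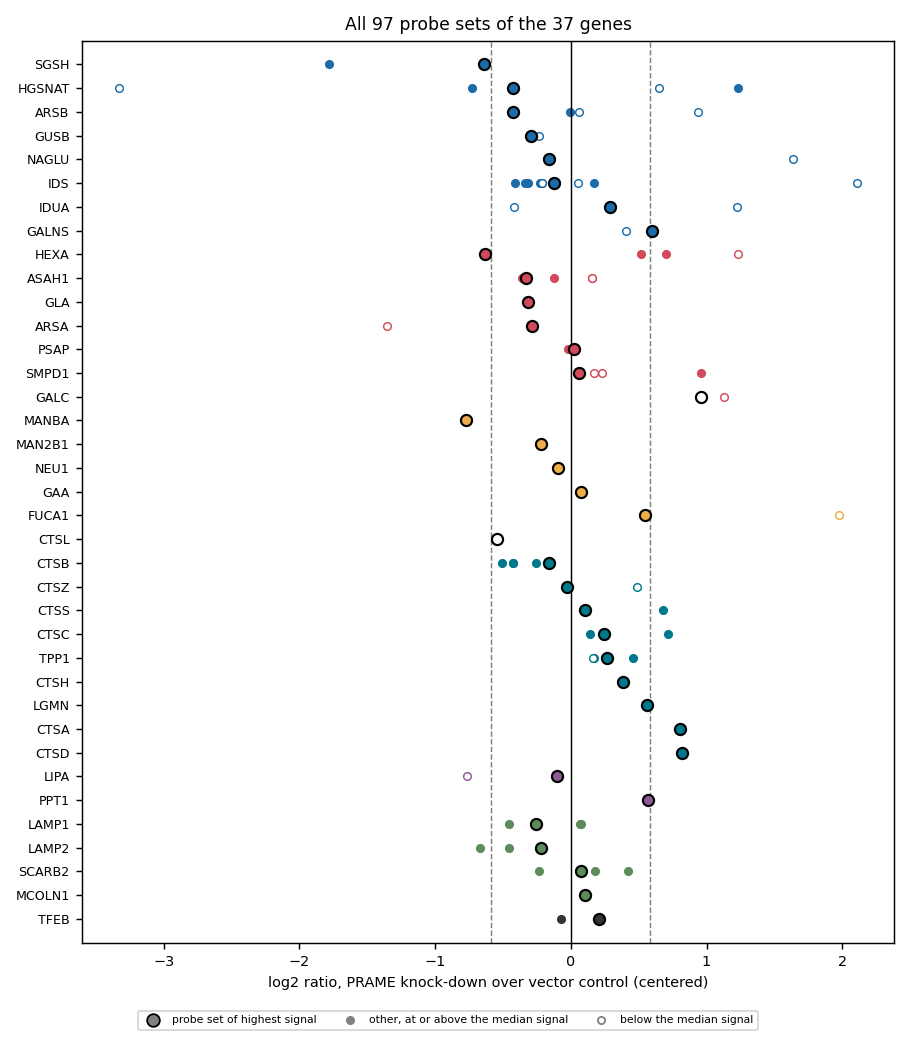
Log2 ratios (PRAME knock-down relative to vector control) for all 97 probe sets of the 37 genes, 1 array per condition, with a black rim for the brightest probe set of a gene, open points below the median signal and dashed lines at 1.5-fold. Both probe sets of SGSH and all 5 of CTSB lie below 0, all 4 of CTSC and of TPP1 above 0, and those of HEXA range from -0.63 to 1.23.

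Of 10 protease genes 7 were above 0, with 2 past 1.5-fold as higher and none as lower. Of all genes 43.3% were below 0, 20.6% were past 1.5-fold as higher and 9.23% as lower. At or above the median signal were 9 proteases, 2 of them past 1.5-fold as higher, compared with 7.54% of all genes with such signals. The protease median of 0.26 stayed above 0 under all 8 alternatives. CTSA, a carboxypeptidase that also protects GLB1 and NEU1 within a complex, had a signal of 861 in the knock-down cells and 477 in the control cells (log2 ratio 0.81). Of the 1000 probe sets nearest in signal 98.1% had a lower ratio, and CTSA was at least 1.5-fold higher in all 8 alternatives. The 327 genes of chromosome 20 with signals at or above the median, where CTSA and CTSZ lie, had a median log2 ratio of -0.17. The part of this shift in the values of CTSA and CTSZ was not tested. PLTP, which overlaps CTSA on the opposite strand, was below the median signal with 5.72 in knock-down and 31.7 in control cells. CTSD, the aspartic protease of lysosomes, had a signal of 150.3 in the knock-down cells and 82.4 in the control cells (log2 ratio 0.82). The control signal was below the median of all probe sets, 88.2% of the probe sets with similar signals had a lower ratio, and with the offset of 64 the log2 ratio was 0.51. LGMN, the legumain that cleaves after asparagine, had 771 in the knock-down cells and 505 in the control cells (log2 ratio 0.56), just under 1.5-fold.

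The cysteine cathepsins went in both directions. CTSC, which activates granule proteases, was above 0 in all 4 probe sets, with 6481 in the knock-down cells and 5303 in the control cells for the brightest and log2 ratios between 0.14 and 0.71. CTSS, which trims the invariant chain in antigen-presenting cells, was above 0 in all 3 probe sets, with signals of 1575 and 1416 in knock-down and control cells (log2 ratio 0.11) and a highest ratio of 0.68 for 202901_x_at. CTSH had 151.9 and 112.8 in the same order (log2 ratio 0.38), near the median signal. CTSB was the exception with log2 ratios below 0 in all 5 probe sets, between -0.51 and -0.16. Its signal was 1665 in the knock-down cells and 1801 in the control cells for 200839_s_at, and 869.5 and 1131 for 200838_at. CTSZ had almost the same signals in both conditions with 283 in knock-down and 279.8 in control cells (log2 ratio -0.03). CTSL was below the median signal on both arrays, with 35.2 in the knock-down cells and 49.8 in the control cells (log2 ratio -0.55). The 6 cysteine cathepsins, also a subset formed afterwards, thus included 3 genes above 0 and 3 below, none past 1.5-fold in the brightest probe set. CTSL passed it as lower with quantile-normalized signals (-0.86) and with the loess trend removed (-0.87).

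TPP1, a tripeptidyl peptidase, was above 0 in all 4 probe sets, of which 3 were at or above the median signal. Its signal was 1985 in the knock-down cells and 1598 in the control cells (log2 ratio 0.27), and the highest ratio was 0.46 for 214196_s_at.

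The enzymes for lipids and palmitate differed from each other. PPT1, which removes palmitate from proteins, had a signal of 4027 in the knock-down cells and 2628 in the control cells. Its log2 ratio of 0.57 was just under 1.5-fold, but 98.2% of the 1000 probe sets nearest in signal had a lower ratio, and it passed 1.5-fold without centering (0.62), with quantile-normalized signals (0.65) and with the loess trend removed (0.64). LGMN and FUCA1 passed it under the same 3 alternatives, and FUCA1 also for the median of its probe sets. LIPA, the acid lipase for cholesteryl esters and triglycerides, had 6378 and 6637 in knock-down and control cells (log2 ratio -0.10).

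The membrane proteins were within 1.5-fold for the brightest probe sets, with a median of -0.07 that was 0.0023 for the median over the probe sets of each gene. LAMP1 and LAMP2 are the most abundant glycoproteins of the lysosomal membrane, and an isoform of LAMP2 also serves as the receptor of chaperone-mediated autophagy. LAMP2 was below 0 in all 4 probe sets, with a signal of 4372 in the knock-down cells and 4942 in the control cells for 200821_at (log2 ratio -0.22). Its lowest log2 ratio was -0.67 for 226671_at, with 381 in knock-down and 587 in control cells. LAMP1 had 5297 and 6145 in the same order (log2 ratio -0.26), and its other probe sets had 0.08, 0.06 and -0.45. SCARB2, the receptor that carries beta-glucocerebrosidase to the lysosome, had 4078 and 3751 (log2 ratio 0.08), with values between -0.23 and 0.42 in its 4 probe sets. MCOLN1, a calcium channel of the lysosome, had 295 in the knock-down cells and 267 in the control cells (log2 ratio 0.10). The transcription factor TFEB had 811 and 680 in knock-down and control cells (log2 ratio 0.21) for 50221_at, whereas 221866_at had 263 and 268 (log2 ratio -0.07), so that its 2 probe sets lay on both sides of 0.

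Probe sets of the same gene often differed in sign. Of 16 lysosomal genes with at least 2 probe sets at or above the median signal, 4 were below 0 in all of them (SGSH, ARSB, CTSB and LAMP2), 4 were above 0 in all of them (SMPD1, CTSC, CTSS and TPP1) and 8 had both signs. Of the 5840 genes of this kind on the arrays 28.3% were below 0 in all and 21.2% above 0 in all. The pooled SD between probe sets of a gene was 0.40 on the log2 scale for the lysosomal genes and 0.33 for all genes, and these values hold no spread between cultures. Ratios of the 19 lysosomal genes with a single probe set at this signal had no such comparison.

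**Figure D3:**
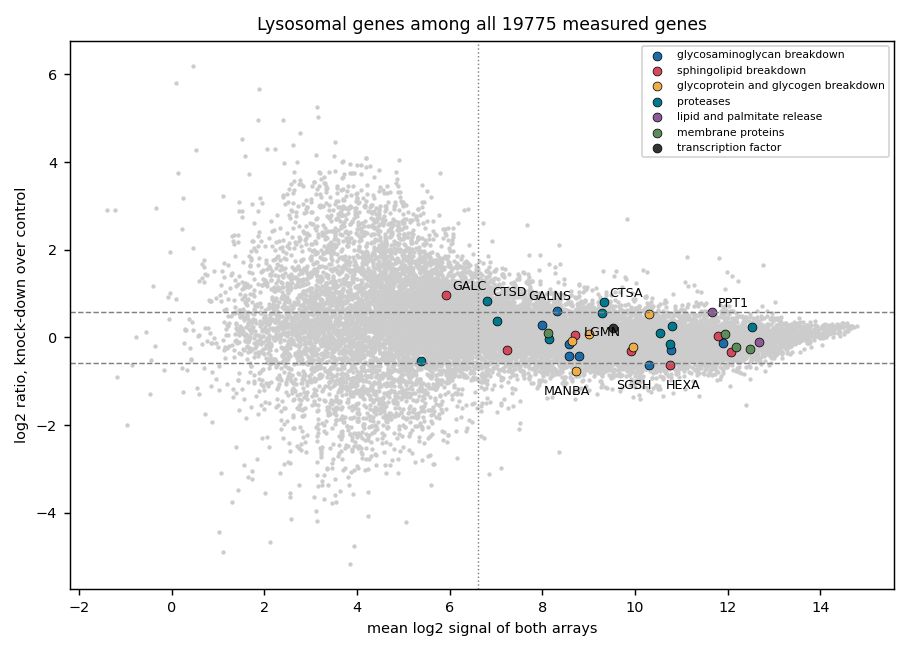
Log2 ratios (PRAME knock-down relative to vector control) plotted over the average log2 signal of both arrays for all 19775 measured genes (grey) and the 37 lysosomal genes (colored by role), 1 array per condition, with dashed lines at 1.5-fold and a dotted line at the median signal. The lysosomal genes lie within the cloud of all genes, from -0.77 for MANBA to 0.96 for GALC, which lies left of the dotted line.

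The genes with the promoter motif did not move in one direction. Of the 5 genes with the longer form, 4 had log2 ratios above 0 (CTSA, GALNS, MCOLN1 and GAA) and LAMP1 was below 0, with a median of 0.10. The 18 measured genes without the core had a median of 0.07 (10 above 0 and 8 below). For all 223 measured genes whose promoters held the longer form, the median was 0.08. Of the 7 lysosomal genes with the core 3 (42.9%) were past 1.5-fold as higher (CTSA, CTSD and GALNS). Of the 18 without it 1 (5.56%) was, GALC. CTSD had a control signal below the median, GALNS was just past 1.5-fold, and the motif was chosen after the values were seen. Whether the motif bears on these ratios was not tested. Among all measured genes the share past 1.5-fold as higher was 15.8% with the core (216 of 1369) and 19.8% without it (2768 of 14015). GALC did not hold these letters within the window. The promoters of SGSH, HEXA and MANBA were not analyzed here.

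Genes that build, acidify and supply lysosomes were described in the same way. The 7 further lists held 127 genes, of which 114 were measured, with 6 (of 114) past 1.5-fold as lower and 8 as higher in PRAME knock-down and a median of 0.0063. For all genes the shares were 9.23% as lower and 20.6% as higher. Of the 106 list genes at or above the median signal 6 were past 1.5-fold as lower and 6 as higher. The shares for the 11794 genes with such signals were 5.42% and 7.54%. The proton pump, which acidifies the lysosome, had a median of -0.07 over 17 genes, which moved to 0.0062 with the loess trend removed. TCIRG1, a subunit of its membrane part, was its only gene past 1.5-fold, with 576 in the knock-down cells and 947 in the control cells (log2 ratio -0.76). ATP6V0A2 and ATP6AP1 had log2 ratios of -0.51 and -0.46, and ATP6V1B2 had 0.44. The probe sets of ATP6V0A2 at or above the median signal ranged from -0.51 to 0.51.

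Sorting of enzymes to the lysosome had a median of -0.0087 over 18 genes, with 2 of them past 1.5-fold as higher, and the median was 0.04 without centering. NAGPA, which uncovers the mannose phosphate mark, had a signal of 267 in the knock-down cells and 147.8 in the control cells (log2 ratio 0.81). GNPTAB and GNPTG, which encode the transferase that begins this mark, had log2 ratios of -0.47 and 0.46. The probe sets of GNPTAB at or above the median signal ranged from -0.47 to 0.94. The adaptor subunit AP1S1 had 355 and 208 in knock-down and control cells (log2 ratio 0.73), but -0.97 in its second probe set. MiT/TFE factors and mTORC1 regulators at the lysosome had a median of 0.02 over 18 genes, with 2 past 1.5-fold as lower and none as higher. The median was -0.03 without probe sets ending in _s_at, _x_at or _a_at. SLC38A9, an amino acid sensor of the lysosomal membrane, had 900.1 in the knock-down cells and 1422 in the control cells (log2 ratio -0.71). Its other probe set at or above the median signal had -0.07. FNIP2, a partner of folliculin, had 426 and 673 (log2 ratio -0.71) and was below 0 in all 3 probe sets. LAMTOR3 and RRAGB had log2 ratios of -0.45 and 0.30.

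Other lysosomal hydrolases and activators had a median of 0.10 over 18 measured genes, with 3 past 1.5-fold as higher and none as lower. These were NAAA, which hydrolyzes N-acylethanolamines, with 1355 in the knock-down cells and 742 in the control cells (log2 ratio 0.82), and the cathepsins CTSK and CTSV with log2 ratios of 0.76 and 0.61. The probe sets of NAAA ranged from -0.08 to 0.82. SIAE, a sialate esterase, had -0.54, but 0.06 in its other probe set at or above the median signal. Of 5 cystatins, the inhibitors of cysteine cathepsins, CSTB alone was at or above the median signal, with 3924.5 in the knock-down cells and 3804 in the control cells. Other lysosomal membrane proteins had a median of 0.0018 over 20 genes, and of -0.09 without probe sets ending in _s_at, _x_at or _a_at. Past 1.5-fold were 2 as lower and 1 as higher, the latter below the median signal. The calcium channel MCOLN3 had 127.1 in the knock-down cells and 239 in the control cells (log2 ratio -0.96), with values up to 0.21 in its 3 probe sets. LMBRD1, needed for the export of cobalamin from lysosomes, had 3006 and 4699 (log2 ratio -0.69), and 1.8% of the 1000 probe sets nearest in signal were lower. CLN3 and the hematopoietic protein LAPTM5 had log2 ratios of 0.58 and 0.56. Among 18 autophagy genes the median was -0.05, and 0.03 with quantile-normalized signals. Of these genes 1 was past 1.5-fold as lower and 2 as higher, but only 1 as higher at or above the median signal. ATG5, which takes part in LC3 lipidation, had 3889.5 in the knock-down cells and 6006 in the control cells (log2 ratio -0.67), with up to 0.11 in its 3 probe sets, whereas the kinase ULK1 (0.63), the GTPase RAB7A (0.51) and VPS11 (0.50) had log2 ratios above 0.

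**Figure D4:**
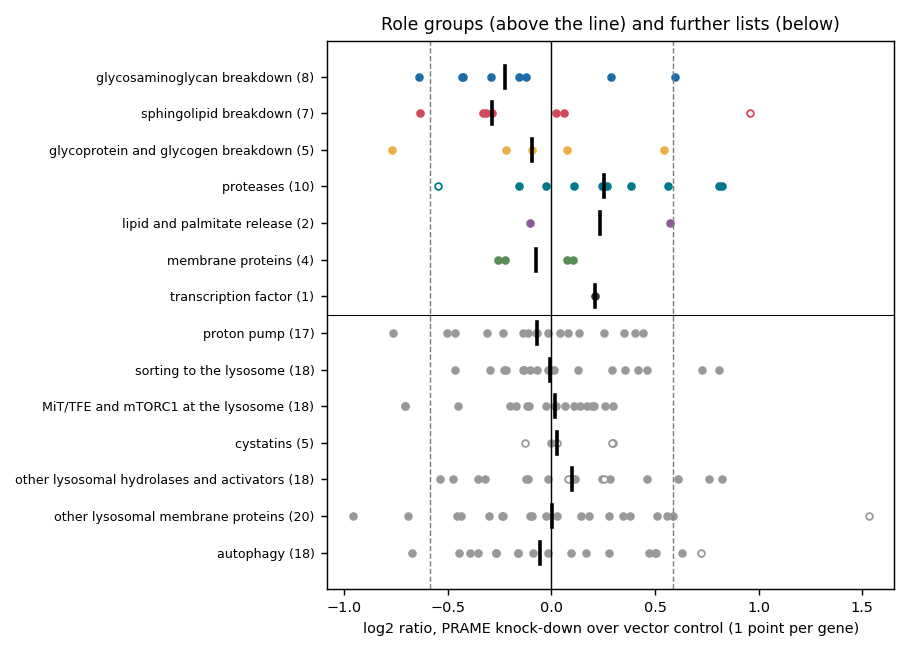
Log2 ratios (PRAME knock-down relative to vector control), 1 point per gene at its brightest probe set, for the role groups of the lysosomal genes and for the 7 further lists, with the number of measured genes in brackets (open points below the median signal, black bars are medians, dashed lines at 1.5-fold, 1 array per condition). The medians range from -0.29 for sphingolipid breakdown to 0.26 for proteases.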

How the data were processed

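RNA of L-428 cells was hybridized to 1 array per condition. The authors processed the arrays with MAS5 in Affymetrix Expression Console 1.1 and deposited signal intensities on a linear scale for 54675 probe sets, scaled to the same trimmed mean of 500.1 on both arrays. From the deposited intensities log2 signals were computed without an offset, 62 control probe sets were left out, and the ratios were centered on the median of the 27307 probe sets whose mean log2 signal reached the overall median (a signal of 97.7). MAS5 signals of different probe sets do not rank transcript levels.

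Gene names came from the platform annotation, updated by gene ID through the RefSeq table of GRCh38.p14. It gave 1 symbol for 41097 probe sets (41043 matched), several for 1801 and none for 11777, and only those with 1 symbol were used. The genes, groups and lists, and the 1.5-fold threshold, were chosen with earlier results of these data known. All measured genes of the list are named. Of each further list up to 4 genes with the largest ratios at or above the median signal are named, and also the 3 neighbors of SGSH on each side. The promoter motif was chosen after the values were seen. The number of arrays limits the precision. Scripts were tested on simulated data. The alternatives were no centering, quantile normalization, subtraction of a loess trend (span 0.4), an offset of 64, filters at the median and the 75th percentile of the signals, the median over all probe sets of each gene, and leaving out probe sets that end in _s_at, _x_at or _a_at. The loess trend was fitted with statsmodels 0.14.6, other values were computed with pandas 2.3.3 and numpy 2.4.6 in Python 3.11.15, and plots were drawn with matplotlib 3.10.9.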

Additional observations from a re-analysis of the deposited data

How the results depend on the processing

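In PRAME knock-down 4 lysosomal genes (10.8%) were past 1.5-fold as higher, against 20.6% of all genes. The number was 7 without centering and 1 with the offset of 64 (18.9% and 2.70%, against 22.2% and 5.23% of all genes). With the filter at the 75th percentile (22 of 37 genes measured) it was 1 (4.55%, against 2.49%). When probe sets ending in _s_at, _x_at or _a_at were left out (30 genes measured) it was 7 (23.3%, against 22.5%). The share of all genes at least 1.5-fold lower lay between 3.27% (offset of 64) and 12.0% (loess trend removed). The number at least 1.5-fold lower (3) stayed within 1.5 times under all 8 alternatives, but the genes changed. They were MANBA and CTSL with quantile normalization and with the loess trend removed, SGSH and HEXA with the filter at the 75th percentile, and ARSA (-0.82) or HGSNAT (-0.73) stood in place of HEXA for the median of probe sets or without the endings. The median of the lysosomal genes lay between -0.05 (loess trend removed) and 0.13 (without the endings), so that its sign changed. HEXA changed its direction, with a log2 ratio of 0.61 for the median of its probe sets and 0.70 without these endings, since its brightest probe set is 201765_s_at. Of the genes within 1.5-fold, NAGLU (0.74 and 1.64) and ARSB (0.03 and 0.94) were above 0 under the same alternatives, ASAH1 (0.15) and LAMP1 (0.08) without the endings, and CTSZ without centering (0.02) and for the median of its probe sets (0.23). CTSA and MANBA were past 1.5-fold under all alternatives in which they were measured. No paired analysis was possible because there is 1 array per condition, and no replicate could be left out. Signals below 97.7 limit the ratios of GALC, CTSL and CTSD.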
